A study of Mus musculus with 4 samples.

Results

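The genes that flank Ifnar1 on mouse chromosome 16 were examined in sorted intestinal stem cells that carry or lack this gene. The Ifnar1 protein is a subunit of the type I interferon receptor. The 10 genes, Synj1 and Paxbp1 on 1 side of Ifnar1 and Tmem50b, Dnajc28, Gart, Son, Donson, Cryzl1, Itsn1 and Mrps6 on the other, were taken from a list of genes flanking the targeted locus that leaves out the receptor genes there (Ifnar2, Il10rb and Ifngr2). The list does not hold every gene of the stretch: Olig2, Gm10785, Atp5o and Slc5a3, among others, lie between Synj1 and Mrps6. Beyond Synj1, Cfap298, Eva1c and Urb1 are also nearer to Ifnar1 by gene order than Mrps6 is. They are 10 of 21368 genes that have a named probe on the array. The knockout group was Ifnar1-/-:Lgr5-EGFP-Ires-CreERT2 mice and the control group was Lgr5-EGFP-Ires-CreERT2 mice, so both carried the Lgr5 knock-in reporter, which drives EGFP and a tamoxifen-dependent Cre from the Lgr5 locus. Per the series' design text, both groups received poly(I:C), a synthetic mimic of viral RNA, at 2 mg/kg intraperitoneally every day for 1 week. Lgr5-high cells were then isolated by flow cytometry, per the same text. The sample labels can be read in this way or as cells taken 1 week after injection, and the first reading is followed here. Each group had 2 samples, each hybridised to its own single-colour Agilent array. The sex, age and number of mice behind a sample, the genetic background of the knockout line and the part of Ifnar1 that was disrupted are not given in the sources used here.

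A gene next to a targeted locus stays with it over many generations of breeding, because recombination between close sites is rare. A knockout line can therefore carry a flanking stretch of the chromosome from the embryonic stem cells in which the targeting was done, and an inserted selection cassette can also change the transcription of nearby genes. For this reason the neighbours of a disrupted gene are a customary control in the description of a knockout line. The 10 genes have no known shared role: they serve purine synthesis, splicing, DNA replication, vesicle traffic, mitochondrial translation and other housekeeping processes. Neither the flanking haplotype nor a cassette was measured here, and their part in any value below was not tested.

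Slide and replicate number went together: slide 1 held knockout 1 and control 1, and slide 2 held knockout 2 and control 2. Between 63.3% and 67.7% of spots other than controls were well above background on an array, and 0 spots were saturated. Signals are given as the log2 of the processed intensity minus the array's 75th percentile, so that 0 marks the 75th percentile, and a difference is knockout minus control on that scale. Over all 24864 genes tested the median difference was 0.02. Markers of the labelled cell type were present. The 9 measured Lgr5 stem cell markers had a summed level of 6.42 and 6.30 in the knockout and 6.23 and 6.21 in the control. Lgr5 itself was at 3.32 and 2.93 in the knockout and 3.04 and 2.82 in the control. All 9 were higher in the knockout in group means (13504 of all 24864 genes were), with a median difference of 0.14, and 0 were called. Markers of Paneth cells, the granular neighbours of stem cells in the crypt, moved with genotype. Their summed level was 6.91 and 7.59 in the knockout and 8.86 and 9.22 in the control. All 7 measured members were called lower with the slide as a block (limma), as were 0.402% of all genes. Without the block 0 of all genes were called (limma). Of the 6 measured immune markers, 4 were higher and 2 lower in group means, with a median difference of 0.04. Lyz2 was the 1 called lower with the slide as a block, with a difference of -2.64 (limma, adjusted p = 0.00677). The 5 other immune markers, and the goblet, enteroendocrine, tuft, enterocyte and stromal lists, held no called gene. Median differences were -0.28 for the goblet list, -0.49 for the enteroendocrine, 0.02 for the tuft and 0.37 for the enterocyte list. Of the 5 stromal markers only 2 were tested. In such bulk samples fewer cells of a type and less RNA per cell cannot be told apart. The part of these marker differences in the values below was not tested.

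The targeted gene separated the groups on every probe. Ifnar1 read -1.76 and -2.28 in the knockout and -0.21 and -0.37 in the control. The groups did not overlap, and the difference was -1.73 (95% interval from -2.46 to -0.997), which is 3.31-fold lower in the knockout. Its 3 probes differed by -1.93, -1.73 and -1.66, the first of them above background on 1 of the 2 knockout arrays. With the slide as a block the gene passed over all genes (limma, adjusted p = 0.0433), and without the block it did not (limma, adjusted p = 0.479).

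The neighbours did not pass. Of the 9 neighbours that were measured well enough to be tested, 0 were called by limma without the block, as were 0% of all genes. With the block 0 were called higher, against 0.0523% of all genes, and 0 lower, against 0.402% of all genes. At an unadjusted p under 0.05 the count was 0 of 9 as well, both without the block (2.76% of all genes) and with it (12.4% of all genes). These results take the brightest probe of each gene. Of the 19 neighbour probes tested, 2, both of Itsn1, were under 0.05 in each fit (limma). With the block 11.9% of all probes were. The dimmer of these Itsn1 probes passed the filter only through the controls. Adjusted p-values of the 9 genes were 1.00 without the block and ran from 0.421 to 0.945 with it. Their differences spanned -0.35 to 0.20 with a median of 0.03. Within slide 1 the median was -0.01, and within slide 2 it was -0.03. The 95% intervals of all 9 included 0, had a median width of 1.09 log2 units and reached as far as -0.90 (Cryzl1) and 0.79 (Paxbp1), so changes up to these bounds are within the error of 4 arrays for those genes. The exact permutation test of 2 samples against 2 cannot go below a two-sided p of 0.333, and since the labels do not state that the samples are separate animals, p-values measure the spread between these samples only, which may be technical.

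**Figure D1:**
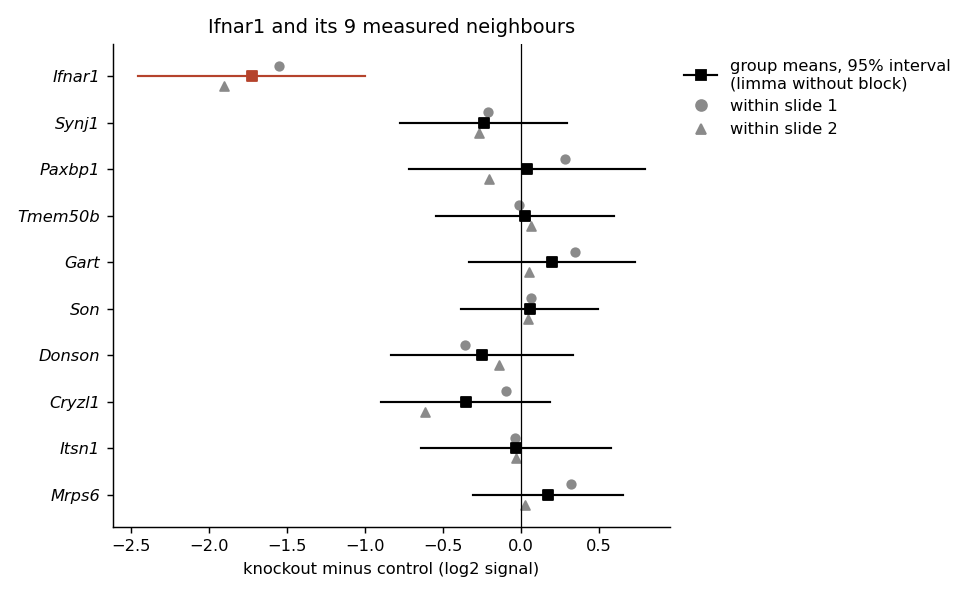
Difference between knockout and control for Ifnar1 (red) and its 9 measured neighbours, in log2 signal. Squares are group means with the 95% interval of the limma fit without the block, grey circles and triangles the differences within slide 1 and slide 2. Ifnar1 stands at -1.73, and the neighbours lie between -0.35 and 0.20 with intervals that include 0.

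In 6 of the 9 genes the knockout and control values did not overlap, where 26% of all genes did not. They were 3 with the knockout lower (Synj1, Donson and Cryzl1) against 11.4% of all genes, and 3 with the knockout higher (Gart, Son and Mrps6), against 14.5% of all genes. In 7 of the 9 the difference had the same direction on both slides, against 61.2% of all genes: 4 were lower on both (27.2% of all genes) and 3 higher on both (34% of all genes). The direction of the 6 was split evenly. The larger of the gaps between the 2 replicates of a group had a median of 0.23 over the 9 neighbours and of 0.48 over all genes. In 4 of the 9 (Son, Donson, Synj1 and Mrps6) the difference was larger than that gap, against 16.7% of all genes. With 9 genes chosen by name these shares are descriptions without a test. They also count only the brightest probe of a gene. For Donson and Cryzl1 the dimmer probe pointed upward instead, by 0.24 with overlapping groups and by 0.12 without overlap. The dimmer Son probe differed by -0.08 and its groups overlapped. Gart, Synj1 and Mrps6 had no other probe that passed the filter.

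**Figure D2:**
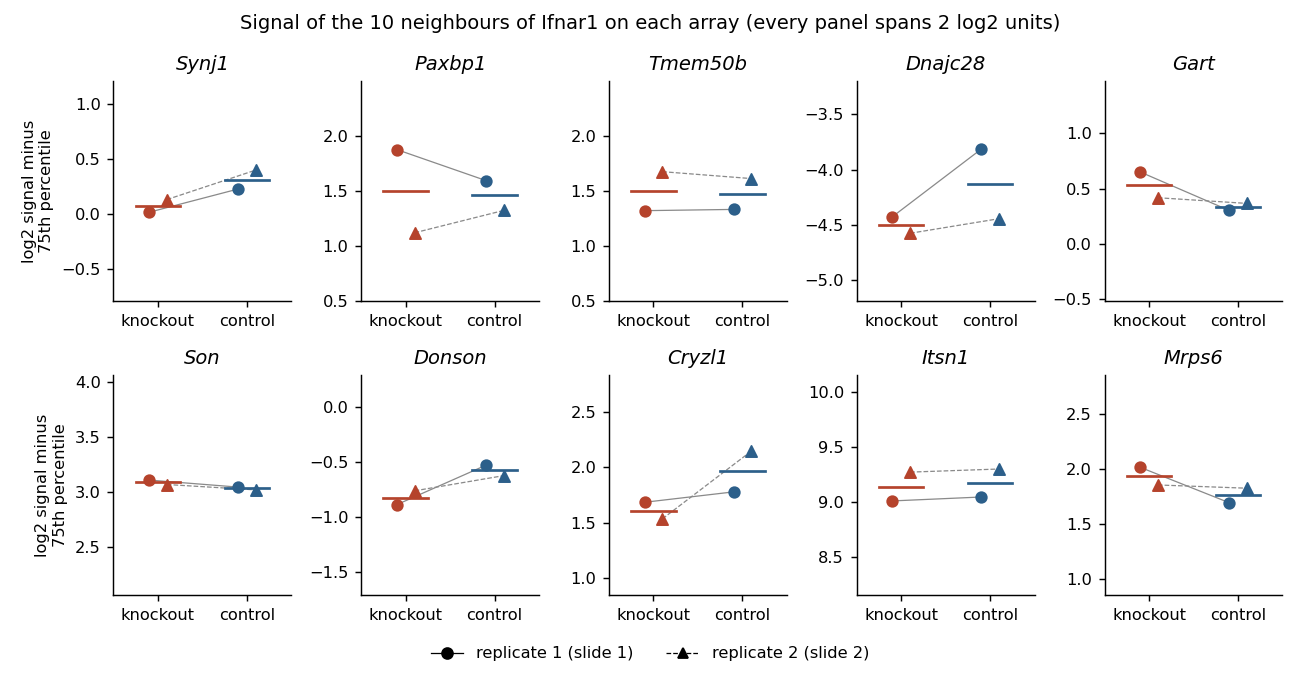
Signal of each of the 10 neighbours on each array, as log2 intensity minus the array's 75th percentile, with knockout (red) left of control (blue), circles for slide 1 and triangles for slide 2, and bars at the group means of the 2 samples. Every panel spans 2 log2 units, and Dnajc28 is drawn from a probe that was well above background on 1 of the 4 arrays.

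Gart encodes a trifunctional enzyme of de novo purine synthesis, and Son a scaffold of nuclear speckles that supports the splicing of introns with weak splice sites. In the RefSeq annotation of build GRCm38.p6 both start from a stretch between them and run in opposite directions, with start sites 852 bases apart. Cryzl1, a member of the quinone oxidoreductase family named for its likeness to zeta-crystallin, and Itsn1, the endocytic scaffold intersectin, form another such head-to-head pair, with start sites 569 bases apart. The 250 bases before each of these 4 start sites are shown because each pair shares the DNA between its start sites. The windows of a pair lie within that DNA and do not overlap, so each shows a part of it. Beside this, Gart and Son differed by 0.20 and 0.06 in group means, and Cryzl1 and Itsn1 by -0.35 and -0.03. These values rest on the brightest probe of each gene. As means of their probes, Son was -0.01, Cryzl1 -0.12 and Itsn1 -0.37. The sequences run 5′ to 3′ on the strand of the gene. Capitals mark GC boxes (GGGCGG, or CCGCCC on the other strand) and CCAAT boxes (CCAAT, or ATTGG on the other strand). The windows are chr16:91646973-91647222 (minus strand) for Gart, chr16:91647574-91647823 (plus strand) for Son, chr16:91728803-91729052 (minus strand) for Cryzl1 and chr16:91729121-91729370 (plus strand) for Itsn1.
Gart: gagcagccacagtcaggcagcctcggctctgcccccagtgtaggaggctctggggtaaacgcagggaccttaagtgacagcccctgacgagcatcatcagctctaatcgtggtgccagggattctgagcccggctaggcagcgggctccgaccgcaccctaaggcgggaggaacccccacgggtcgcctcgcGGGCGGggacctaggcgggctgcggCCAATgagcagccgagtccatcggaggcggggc
Son: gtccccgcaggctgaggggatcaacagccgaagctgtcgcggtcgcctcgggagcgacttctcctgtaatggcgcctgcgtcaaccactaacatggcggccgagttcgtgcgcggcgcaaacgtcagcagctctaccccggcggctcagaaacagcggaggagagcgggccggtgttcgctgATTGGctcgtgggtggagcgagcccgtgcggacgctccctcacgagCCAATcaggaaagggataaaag
Cryzl1: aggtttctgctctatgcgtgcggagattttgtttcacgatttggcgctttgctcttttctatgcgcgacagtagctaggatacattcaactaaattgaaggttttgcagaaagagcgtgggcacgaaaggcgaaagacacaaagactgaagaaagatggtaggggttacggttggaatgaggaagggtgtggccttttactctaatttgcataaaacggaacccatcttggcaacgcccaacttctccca
Itsn1: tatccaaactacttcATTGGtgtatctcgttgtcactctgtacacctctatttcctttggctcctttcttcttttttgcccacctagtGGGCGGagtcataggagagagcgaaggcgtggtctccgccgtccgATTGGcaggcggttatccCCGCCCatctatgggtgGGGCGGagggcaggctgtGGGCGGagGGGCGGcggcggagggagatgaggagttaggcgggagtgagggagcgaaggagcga
The Gart stretch held 1 GC box and 1 CCAAT box, the Son stretch 2 CCAAT boxes, the Itsn1 stretch 5 GC boxes and 2 CCAAT boxes, and the Cryzl1 stretch neither. Because the partners run in opposite directions, the boxes before 1 partner also lie upstream of the other, beyond its 250 bases. A GC box was present in 7 of the 11 such stretches of the 10 genes (Synj1 has 2 start sites in the table) and in 32.7% of 32851 stretches of all genes, and a CCAAT box in 4 of the 11 and in 33.8%.

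Sequence elements through which interferon receptors act were searched in the same annotation, in windows from 250 bases before to 50 bases after the start. The core of the interferon-stimulated response element, written here as GAAA, 2 bases of any kind and GAAA again (TTTC, 2 bases and TTTC on the other strand), was found in 0 of the 11 windows of the neighbours and in 3.44% of all 32851 windows. The core of the gamma-activated site, TTCNNNGAA, which reads the same on both strands, was found in 0 of the 11 and in 8.30% of all windows. Ifnar1 itself held 1 match of this second kind, TTCACGGAA, which begins 5 bases before its start site. The neighbours' windows were rich in G and C, with a median of 69.3% and 31 CpG dinucleotides a window, against 52.7% and 7 over all windows. These matches describe letters only, and no binding was measured. The GC and CCAAT boxes were added to the search after the values were seen.

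Gart read 0.65 and 0.42 in the knockout and 0.30 and 0.36 in the control. Both knockout samples lay above both control samples, yet the excess came mostly from slide 1, where the difference was 0.35, while on slide 2 it was 0.05. The group means differed by 0.20 (95% interval from -0.33 to 0.73; limma with slide block, adjusted p = 0.59). The 5 other enzymes of the pathway that were listed (Ppat, Pfas, Paics, Adsl and Atic) had a median difference of 0.16, and 0 of them were called in either fit. Adsl, the adenylosuccinate lyase that acts in purine synthesis, was at 0.40 and 0.52 in the knockout and 1.23 and 0.89 in the control (difference -0.60; limma with slide block, adjusted p = 0.266). Paics, a bifunctional enzyme of the pathway, was at 3.41 and 3.40 in the knockout and 3.23 and 3.07 in the control.

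Son showed the narrowest spread of the 9 genes: 3.11 and 3.07 in the knockout and 3.05 and 3.02 in the control. The difference was 0.06 (95% interval from -0.38 to 0.49), with 0.06 on slide 1 and 0.05 on slide 2. Its other probe, which represents another RefSeq transcript, read 0.04 and -0.83 in the knockout and -0.05 and -0.59 in the control and thus followed the slide rather than the genotype. Among 13 genes of speckles and splicing, 10 were higher and 3 lower in group means, with a median of 0.08 and 0 called. Over all 24864 genes, 13504 were higher in group means. Pnn, the speckle protein pinin, read 3.77 and 3.83 in the knockout and 3.57 and 3.56 in the control, and U2af2, the large subunit of the factor that recognises the polypyrimidine tract, differed by 0.23.

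Donson, a protein that loads and protects the replicative helicase at forks, is read by a pair of probes that gave opposite directions. The brighter read -0.88 and -0.76 in the knockout and -0.53 and -0.62 in the control, a difference of -0.25 (95% interval from -0.83 to 0.34). The dimmer read -1.02 and -1.43 in the knockout and -1.24 and -1.69 in the control, a difference of 0.24, with the knockout higher on both slides. Both probes cite the same transcript, so a direction for this gene cannot be given. In the RefSeq table the Donson gene overlaps that of Son over 12337 bases and lies on the opposite strand. All 13 replisome and fork protection genes listed as its partners were higher in group means and on both slides (34% of all genes were higher on both), with a median of 0.27 and differences from 0.10 to 0.69, but 0 were called by limma in either fit (smallest adjusted p = 0.0763 with the slide block). At an unadjusted p under 0.05 there was 1 of 13 without the block (2.76% of all genes) and 6 of 13 with it (12.4% of all genes). Gins1, a subunit of the helicase complex, read 0.83 and 0.53 in the knockout and 0.14 and 0.02 in the control, and Atr, the kinase that responds to stalled forks, 1.02 and 0.30 in the knockout and -0.11 and 0.04 in the control.

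Cryzl1 had the lowest value among the 9 differences. It read 1.68 and 1.53 in the knockout and 1.78 and 2.15 in the control, a difference of -0.35 (95% interval from -0.90 to 0.19; limma with slide block, adjusted p = 0.421). The groups did not overlap, but control 2 stood apart from the 3 other arrays, and the difference was -0.09 on slide 1 and -0.62 on slide 2. Its other probe, of the same transcript, pointed the other way: 1.54 and 1.45 in the knockout, against 1.33 and 1.42 in the control. The annotated long noncoding RNA Gm10785, whose gene overlaps that of Cryzl1 over 26456 bases, read -1.39 and -1.29 in the knockout and -0.74 and -0.63 in the control. Slides 1 and 2 gave differences of -0.65 and -0.66 (limma with slide block, adjusted p = 0.265), and whether its probe also takes up Cryzl1 RNA was not tested.

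Itsn1 is the neighbour whose probes disagreed most. It encodes a scaffold that gathers dynamin and other coat factors at clathrin-coated pits, and its long form also activates Cdc42. The gene has 7 probes that passed the filter, for 3 RefSeq transcripts. The brightest, A_55_P1994603, which stands for the gene in the fit, read 9.01 and 9.27 in the knockout and 9.05 and 9.30 in the control, a difference of -0.03 (-0.04 on slide 1 and -0.03 on slide 2). Another 4 probes differed by 0.04 to 0.17 in group means, and 3 of these changed sign between slides. They were far dimmer than the brightest, with control means from -2.65 to 0.95 against 9.18. Among them, A_52_P396498 (control mean 0.37) and A_55_P1994613 (-2.65) cite the same transcript as the brightest. Whether the brightest probe reads Itsn1 RNA alone was not tested, so its value may not stand for the gene.

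The remaining pair of Itsn1 probes had lower knockout than control values within either slide. Probe A_55_P1994586 read -0.86 and -1.21 in the knockout and -0.47 and -0.26 in the control, a difference of -0.67 (95% interval from -1.32 to -0.02; limma over all probes with slide block, adjusted p = 0.305). Probe A_55_P1958062, the one that cites transcript NM_001110276, read -6.59 and -5.43 in the knockout and -3.94 and -3.52 in the control. It was not well above background on either knockout array, so its knockout level is uncertain. Set against a floor, the lowest level of any probe counted as above background on the knockout arrays, the control mean was 1.66-fold higher. That floor is not a strict bound. Il10rb read -4.14 and -4.57 in the knockout, above the floors of -4.26 and -4.67, and still did not count as above background. The measured means were -6.01 in the knockout and -3.73 in the control (limma over all probes, adjusted p = 0.271 with the slide block and 1.00 without it). This probe entered the test only because the controls were above background, so it had to differ in that direction. Of all 35420 probes tested, 0.621% were above background on both control arrays and on no knockout array, and 0.822% showed the reverse.

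The span between the lowest and the highest probe of Itsn1 was 2.45 log2 units. That span was set by A_55_P1958062, and the 6 probes above background on all arrays ran from -0.67 to 0.17, a span of 0.84. The position of the probes on the transcripts is not used here, so the disagreement cannot be assigned to a part of the gene. No probe of any neighbour was called over all probes in either fit.

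**Figure D3:**
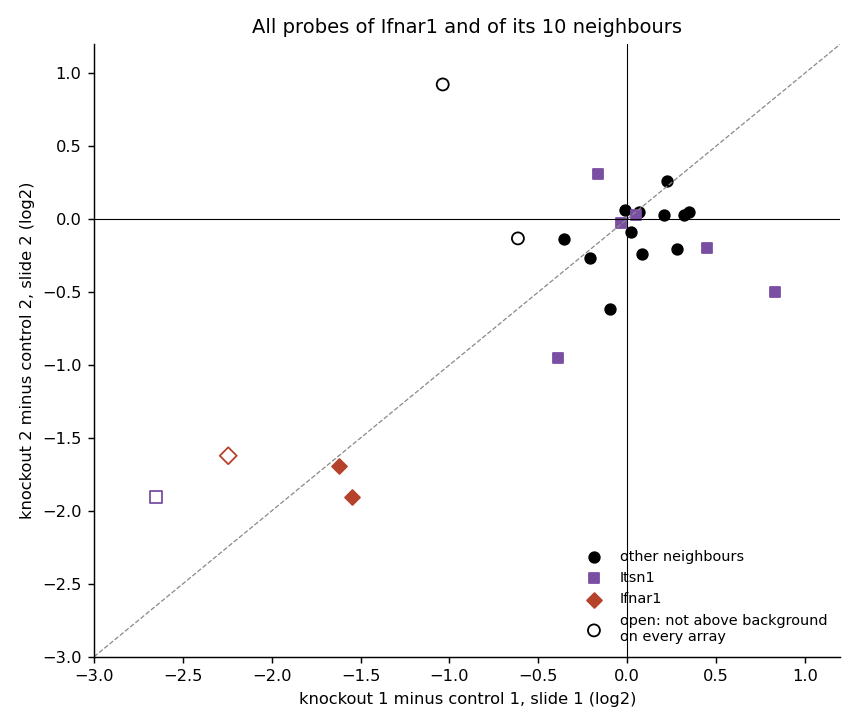
Knockout minus control within slide 1 (horizontal) and within slide 2 (vertical), in log2 signal, for all 21 probes of the 10 neighbours and the 3 of Ifnar1; open symbols were not above background on every array. Most probes of the neighbours gather around 0, the 3 of Ifnar1 lie below -1.5 on both slides, and 1 dim probe of Itsn1 differs by -2.28 in group means.

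Synj1 encodes synaptojanin, a phosphoinositide phosphatase that strips the coat from clathrin vesicles and works in the same process as Itsn1. It read 0.02 and 0.13 in the knockout and 0.23 and 0.40 in the control. The groups did not overlap, differing by -0.21 within slide 1 and -0.27 within slide 2, and the group means differed by -0.24 (95% interval from -0.78 to 0.30; limma with slide block, adjusted p = 0.5). A dimmer probe of another transcript did not pass the filter and had opposite signs, -1.04 within slide 1 and 0.92 within slide 2. Of 16 measured endocytosis and clathrin coat genes, 13 were higher and 3 lower in group means (13504 of all 24864 genes were higher). Their median was 0.10 and 0 were called. Bin1, a membrane-bending amphiphysin relative, had the largest difference among them: -1.84 and -1.88 in the knockout and -3.50 and -3.76 in the control, 3.41-fold higher, and short of the threshold (limma, adjusted p = 0.0972 with the slide block and 0.564 without it). Eps15l1, an adaptor of coated pits that binds intersectins, differed by 0.33 with overlapping groups.

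Paxbp1, on the same side of Ifnar1 as Synj1, encodes a partner of the transcription factors PAX3 and PAX7 in mouse muscle precursors. It read 1.87 and 1.12 in the knockout and 1.59 and 1.32 in the control. The knockout samples lay on either side of both controls, so that the difference was 0.28 on slide 1 and -0.20 on slide 2, and 0.04 in group means (95% interval from -0.71 to 0.79). Its other probe differed by -0.03.

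Tmem50b, a small membrane protein of the secretory pathway in human cells and the nearest of the 10 genes to Ifnar1, separated the slides and not the genotypes. It read 1.32 and 1.67 in the knockout and 1.33 and 1.61 in the control, with a difference of 0.03 (95% interval from -0.55 to 0.60). Dnajc28, the next gene along and a member of the J-domain family of chaperone partners, was well above background on control 1 alone of the 4 arrays. It read -4.43 and -4.58 in the knockout and -3.81 and -4.45 in the control, did not pass the filter, and has no test.

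Mrps6 encodes a protein of the small subunit of the mitochondrial ribosome and was the farthest of the 10 genes from Ifnar1 by gene order. It read 2.02 and 1.86 in the knockout and 1.70 and 1.83 in the control. The groups did not overlap, although knockout 2 and control 2 were only 0.03 apart, and the difference was 0.18 (95% interval from -0.30 to 0.66; limma with slide block, adjusted p = 0.578). The 28 other genes of that subunit had a median of 0.14, beside 0.18 for Mrps6. Of the 28, 22 were higher and 6 lower in group means, where 13504 of all 24864 genes were higher, and 0 were called. Mrps11 differed by 0.53 and Mrps7 by 0.26. Slc5a3, the gene of a sodium and myo-inositol transporter that overlaps Mrps6 in the annotation, differed by -0.24 on slide 1 and 0.53 on slide 2.

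Relatives of the neighbours were also listed. Of 6 relatives listed, 5 were tested and 0 called, with a median of -0.10. Itsn2, the other intersectin, read -0.73 and -0.76 in the knockout and -1.31 and -1.08 in the control (difference 0.45; limma with slide block, adjusted p = 0.392). Synj2 differed by -0.13, Tmem50a by -0.10 and Gcfc2, the relative of Paxbp1, by -0.22, each with overlapping groups, and Dnajc9, another J-domain protein, by 0.18. Cryz, the namesake of Cryzl1, did not pass the filter, being above background on 0 of the 4 arrays.

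**Figure D4:**
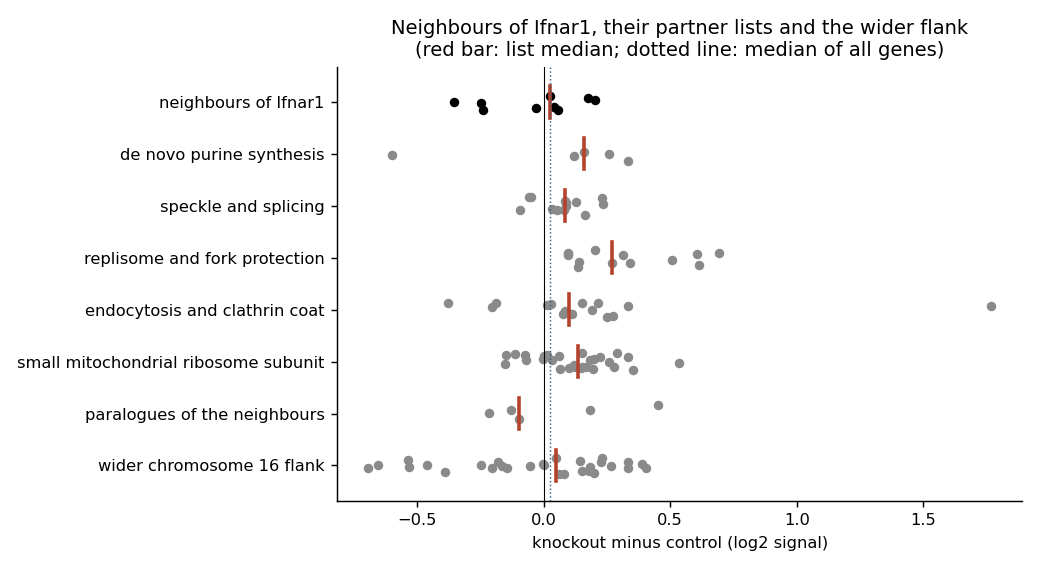
Knockout minus control, in log2 signal, for each tested gene of the neighbours, of the lists of their functional partners, of their relatives and of the wider flank, with a red bar at each median and a dotted line at the median of all genes (0.02). The neighbours have a median of 0.03, and the replisome list, with 0.27, lies wholly to the right of 0.

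The chromosome beyond the 10 genes was followed by gene order, counted over the 676 chromosome 16 genes with a named probe. The 25 positions on each side of Ifnar1, without the 10 neighbours and the receptor genes, hold 37 genes, of which 29 were tested. Their median difference was 0.05, with -0.04 within slide 1 and 0.03 within slide 2. With 10 positions on each side it was -0.20, over 6 tested genes. Of the 29, 0 were called in either fit, and at an unadjusted p under 0.05 there was 1 without the block (2.76% of all genes) and 4 with it (12.4% of all genes). The groups did not overlap in 8 of the 29, a share near the 26% of all genes. The 431 tested genes of the rest of the chromosome had a median of 0.05 as well. On the lower side stood Setd4, a methyltransferase (-0.69), Gm10785 (-0.66) and Hunk, a kinase (-0.39). On the upper side stood Rcan1, an inhibitor of calcineurin (0.40), Krtap8-1, a hair keratin-associated protein (0.33) and Scaf4, a factor of transcript termination (0.27).

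Among the receptor genes, Il10rb, which lies next to Ifnar1 and encodes the shared chain of the interleukin 10 and interferon lambda receptors, was also low: it read -4.14 and -4.57 in the knockout and -2.60 and -3.06 in the control. It was not well above background on either knockout array. The measured difference was -1.52 (95% interval without the block from -2.59 to -0.45), which is 2.87-fold lower in the knockout. This fold is an estimate from dim knockout values and not a bound. Il10rb passed the filter only through the controls and had to be lower, and it was not called (limma with slide block, adjusted p = 0.242). Ifnar2, 1 gene further on, differed by -0.35, and Ifngr2, on the other side of Ifnar1, by 0.06.

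**Figure D5:**
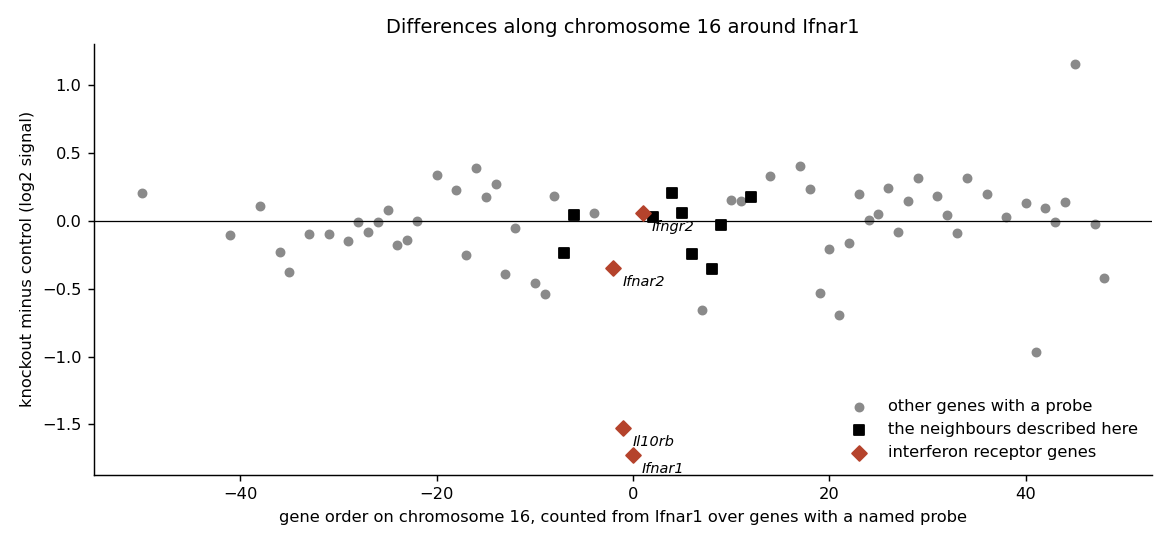
Knockout minus control, in log2 signal, for tested genes against gene order on chromosome 16, with Ifnar1 at 0 and negative positions on the side of Synj1. Ifnar1 lies at -1.73, and the neighbours (black squares), on both sides of it, lie between -0.35 and 0.20. The point of Il10rb is its measured difference, with knockout values that were not above background.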

How the data were processed

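Sorted Lgr5-high intestinal cells were measured on 4 single-colour Agilent arrays, 2 per group. The deposited spot files hold processed signal intensity from Agilent Feature Extraction, already background-subtracted, with well-above-background and outlier flags scored as 0 or 1, per the file headers. The submitters' processing notes name Feature Extraction 11.5.1.1, while the file headers name 12.0.3.1. The authors' series table holds linear intensity with an unstated scaling target. Its column medians were 239 and 223 in the knockout and 249 and 231 in the control.

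Control and outlier spots were dropped, spots of a probe were averaged, and the log2 of the deposited intensity was taken minus each array's 75th percentile. Probes well above background on both arrays of a group were kept (35421 of 55681), and the brightest probe stood for its gene. The array files use build mm9, so RefSeq GRCm38.p6 gave names (28331 probes), gene order and promoter sequences, and no position was converted.

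Differences were tested in limma 3.58.1 under R 4.3.3 (lmFit and eBayes with an intensity trend, Benjamini-Hochberg over 24864 genes, threshold 0.05), after tests on simulated data. The fit without a block is the stated one. The replicate number is also the slide, per the file headers: knockout and control deviations of the same number correlated across genes (Pearson r = 0.563 over 24864 genes), so values with the replicate block stand beside it. Other settings changed the scaling, background correction, value source, filter, probe rule, outlier spots and variance model, or left out 1 array. The genes named are all neighbours, Ifnar1, relatives, 3 of the wider flank in each direction, and 2 of each partner list by smallest p. The neighbours and lists were chosen with earlier results of these data known. Lyz2 and the receptor genes were named after their values were seen.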

Additional observations from a re-analysis of the deposited data

How the results depend on the processing

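No neighbour was called under any of the 16 alternatives. With the replicate block Ifnar1 kept its difference of -1.73 and passed the threshold (limma, adjusted p = 0.0433), and 13 genes in all were called higher and 100 lower, against 0 without the block. The block without an intensity trend called 0. Leaving out 1 array with the fit otherwise as stated gave 0 to 6 genes called higher and 9 to 94 called lower, where the lone sample left in a group is assumed to vary like the other group. Ifnar1 ran from -1.98 to -1.47 without 1 array and was -1.11 after normexp correction. Son was -0.0106 as the mean of its probes. Itsn1 was 0.0481 after quantile scaling and -0.37 as the mean of its probes, Tmem50b was -0.0146 in the authors' series table, and Paxbp1 was -0.00103 there. Without 1 array Itsn1 ran from -0.16 to 0.10, Tmem50b from -0.15 to 0.20 and Paxbp1 from -0.34 to 0.42, so none of these has a settled direction. As means of their probes Donson was -0.0027 and Cryzl1 -0.12. The neighbours' median ran from -0.15 (without knockout 2) to 0.0437 (without control 2), and was -0.11 without control 1. The wider flank's median was -0.20 with 10 genes on each side, over 6 tested genes. The cause of these changes was not tested.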

Other observations

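Farther along chromosome 16, and chosen after their values were seen, 3 genes of the remaining 431 were called with the slide as a block. Of all genes, 0.454% were called with the block. Without the block 0 were called, on this chromosome or over all genes (limma). Rtp4, a chaperone of receptors that interferon induces, read -1.97 and -1.03 in the knockout and 3.43 and 2.48 in the control (difference -4.45; limma with slide block, adjusted p = 0.028). Parp14, an ADP-ribosyltransferase that interferon also induces, read -1.62 and -1.11 in the knockout and 1.51 and 0.90 in the control (limma with slide block, adjusted p = 0.0433). Fstl1, a secreted glycoprotein related to follistatin, was the 1 called higher, at 2.45 and 2.80 in the knockout and 0.55 and 1.15 in the control (limma with slide block, adjusted p = 0.0108). Counted from Ifnar1, their gene order positions are -376, -283 and -250, on the side of Synj1. On the side of Mrps6, Brwd1 differed by -0.97 and Sh3bgr by 1.16, at 41 and 45 positions, and neither was called.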
